A study of Mus musculus with 18 samples.

Results

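The measurement is how the difference between Wapl KO and WT donor T cells changed between an allogeneic and a syngeneic transplant, gene by gene. It was computed for every tested gene as the KO minus WT difference after allogeneic transplantation minus the same difference after syngeneic transplantation, on the log2 scale, and is called the interaction. It drew on 12 of the 18 samples that the labels describe, in 4 groups of 3 libraries. Total RNA was sequenced from splenic donor T cells taken on day 7, sorted as live cells positive for CD3 and for the donor marker CD45.2, with 2 to 4 mice pooled per library.

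Syngeneic WT libraries came from C57BL/6 T cells given to B6.SJL-Ptprca Pepcb/BoyJ recipients, which share the donor's transplantation antigens and carry CD45.1. Allogeneic WT libraries came from C57BL/6 T cells given to CByJ.SJL(B6)-Ptprca/J recipients (BALB/c in the sample labels), whose tissue antigens are foreign to the donor cells. The KO groups received T cells lacking Wapl in the same 2 settings. The labels call the syngeneic KO samples syngeneic by transplant type, yet their cell type field names CByJ.SJL(B6)-Ptprca/J as the recipient. They were grouped by transplant type. Recipients were irradiated with 9.5 Gy in the syngeneic and 8 Gy in the allogeneic setting, and all received the same number of T cell depleted marrow cells and acidified water. The donor T cell dose was 8.5 times as high in syngeneic as in allogeneic recipients, so setting, dose, irradiation and recipient strain cannot be told apart. Donors and recipients were 8 to 12 weeks old and female per the labels. The Cre line, the deleted exons and the sex of KO donors in particular are not given there.

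Wapl opens the cohesin ring and releases it from chromatin, which limits the size of the DNA loops that cohesin extrudes. Donor T cells that meet foreign antigen after transplantation divide, switch off naive genes and switch on effector and inhibitory receptor genes, and drive graft-versus-host disease. A mouse spleen recovering from irradiation also makes red cells, so a splenic sort can hold RNA of red cell precursors beside that of T cells.

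Total counts ran from 45965645 to 89007094 per library, and 18447 genes were tested. Genes that mark T cells (16 tested, such as CD3 subunits) took 0.651 to 0.954% of all counts. Tcf7, which encodes a transcription factor of naive and memory T cells, stood at 622 to 878 CPM in syngeneic WT libraries, at 635 to 938 in those of syngeneic KO and at 145 to 236 in the 6 allogeneic ones. The syngeneic KO libraries thus overlapped syngeneic WT and lay above every allogeneic library for this gene. A list of red cell precursor genes placed them otherwise. It took 0.0351 to 0.0810% of counts in syngeneic KO, 0.3921 to 1.084% in syngeneic WT and 0.0464 to 0.0702% in allogeneic WT. Which recipient strain the syngeneic KO samples had was not tested. CPM are counts scaled to library size with edgeR's TMM factors.

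Wapl itself (chromosome 14, 34673928 to 34747983 in GRCm38) was read at 170, 211 and 183 CPM in syngeneic WT and at 127, 139 and 137 in syngeneic KO. After allogeneic transplantation it was read at 169, 156 and 158 CPM in WT and 145, 124 and 151 in KO. KO was below WT in all libraries of both settings. Its interaction was 0.28 ± 0.16 (log2 ± SE, edgeR adjusted p = 1.0), with KO minus WT at −0.48 ± 0.11 in the syngeneic and −0.20 ± 0.11 in the allogeneic setting. The deleted part of the gene is not known, so reads elsewhere in the transcript do not check the labels fully.

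The interaction passed an adjusted p of 0.05 (edgeR's quasi-likelihood test, Benjamini-Hochberg over all tested genes) in 88 genes, 0.477% of those tested. It was positive in 79 (0.428%) and negative in 9 (0.0488%). Over all tested genes the median interaction was −0.03 on the log2 scale, and 1144 genes (6.2%) had an unadjusted p under 0.05. The same fit called KO against WT in 622 genes after syngeneic transplantation (3.37%) and in 10 after allogeneic transplantation (0.0542%). The interaction shares its libraries with both of these, and its SE was larger, with a median of 0.34 against 0.24 for each.

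The positive and negative genes had different shapes. Of the 79 positive genes, 78 had their highest mean in syngeneic WT and the exception, Ifi208, in syngeneic KO. All 79 were also called between KO and WT in the syngeneic setting, and 1 (Ifi208) in the allogeneic setting. Their median KO minus WT was −3.68 (log2) after syngeneic and −0.03 after allogeneic transplantation. All 9 negative genes had their lowest mean in syngeneic WT and higher means in both allogeneic groups.

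**Figure D1:**
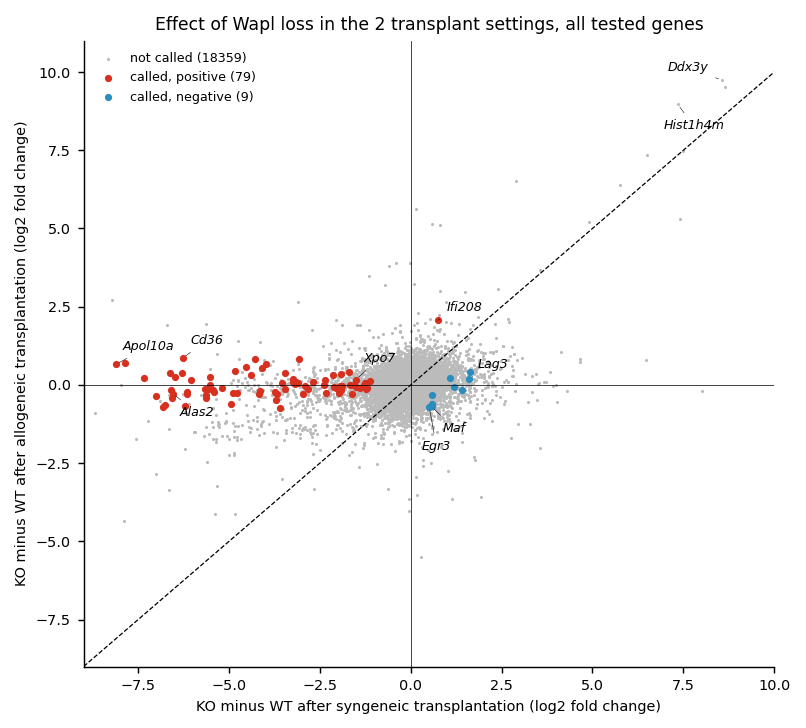
KO minus WT log2 fold change of each tested gene after syngeneic (x axis) and allogeneic (y axis) transplantation; the dashed line marks equal effects, and an interaction is the vertical distance from it. The 79 positive genes lie left of the line near 0 on the y axis except Ifi208, the 9 negative genes lie just right of it, and Hist1h4m and Ddx3y, which were not called, were far above 0 in both settings.

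Counts depended on single libraries. Without syngeneic WT replicate 1 the number called was 242, and without any other single library it lay between 28 and 96. Same-numbered syngeneic WT and KO libraries had positively correlated deviations from their group means. WT replicate 2, however, followed a differently numbered KO library more closely (0.363 against 0.17). A fit with syngeneic libraries paired by number, added after seeing the data, called 173 genes (160 positive, 13 negative), the 88 among them. All 88 kept their direction in both cases.

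Of the 35 lists, the one of red cell genes held the most positive interactions. Of 40 genes in a list of red cell precursor markers, all tested, 13 were called positive and none negative, against 0.428% of all tested genes called positive. The list's count moved with the fit: it was 22 with syngeneic libraries paired by number, 23 without syngeneic WT replicate 1, 3 without allogeneic KO replicate 3, 4 to 17 without 1 of the other 10 libraries, 5 with no filter on low counts and 30 in DESeq2. All 40 estimates were positive, with a median of 3.47 against −0.03 over all genes. An unadjusted p under 0.05 was found for 37 of them (against 6.2% of all tested genes). In the syngeneic setting KO was called lower in 33 of the 40 (622 of 18447 genes were called in either direction), and in the allogeneic setting in 0. The list's median KO minus WT was −3.61 after syngeneic and −0.08 after allogeneic transplantation.

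Hbb-bs, an adult beta globin gene, was read at 886, 1786 and 1512 CPM in syngeneic WT and at 8.72, 5.05 and 24.7 in syngeneic KO. Its allogeneic values were 5.78, 3.05 and 2.99 CPM in WT and 2.51, 3.37 and 1.68 in KO. The 3 syngeneic WT libraries stood far above the other 9, where each group overlapped the next. The interaction was 6.13 ± 0.83 (edgeR adjusted p = 0.0150). Leaving out single libraries ended this call in 6 of 12 cases. Hbb-bt gave 6.43 ± 0.95, a call lost in 8 of 12, and the alpha globin genes Hba-a2 and Hba-a1 gave 6.11 and 5.92. The globin copies are nearly identical in sequence, so the split of reads between members of a pair is uncertain.

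In the haem synthesis list, 5 of 13 genes were called, all positive (against 0.428% of all tested genes), and 8 were not. Alas2 encodes the erythroid form of the enzyme that starts haem synthesis. It was read at 128, 292 and 247 CPM in syngeneic WT, against 1.24 to 4.32 in syngeneic KO. The allogeneic libraries held 0.804 to 1.25 CPM (WT) and 0.587 to 1.16 (KO). Its interaction was 6.26 ± 0.72 (edgeR adjusted p = 0.00583). The call was lost without allogeneic KO replicate 3, with an adjusted p of 0.0577. Called beside Alas2 were the mitochondrial iron importer Slc25a37 (3.50 ± 0.41), its partner Abcb10 (3.30 ± 0.58) and ferrochelatase Fech (2.68 ± 0.45). Slc25a37 kept its call without any 1 library, whereas Abcb10 lost it in 10 of these 12 fits and Fech in 9. Slc25a38, the mitochondrial glycine carrier, gave 0.82 and the second enzyme's gene Alad 0.90, neither called (edgeR adjusted p = 0.43 and 0.71). Alas1, the form of the first enzyme used outside red cells, had an interaction of −0.14 ± 0.20. Its means were 28.4 CPM in syngeneic WT and 32.0 in syngeneic KO.

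Slc25a37 was detected well above 1 CPM in every group. Syngeneic libraries held 231, 584 and 483 CPM in WT and 25.3 to 38.1 in KO, and allogeneic ones 21.5 to 28.3 in WT and 18.5 to 26.0 in KO. Xpo7, an exportin that acts when red cell nuclei condense, was read at 210, 333 and 278 CPM in syngeneic WT and between 94.1 and 130 in the other 9 libraries. Its interaction was 1.68 ± 0.21 (edgeR adjusted p = 0.00489). For both genes the 3 syngeneic WT libraries stood above all others.

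Membrane and skeleton genes of the red cell were called too. Epb42, which encodes protein 4.2, gave 5.78 ± 0.69, with 45.3, 122 and 102 CPM in syngeneic WT and 0.540 to 2.66 in the other 9 libraries. The skeleton gene Dmtn gave 5.53 and the anion exchanger gene Slc4a1 5.54.

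The transcription factors that run the red cell programme were not called by this test. Klf1 had an interaction of 2.98 ± 0.97 (edgeR adjusted p = 0.439), Gata1 2.18 ± 0.65 (0.314) and Tal1 3.65 ± 1.06 (0.338). Their syngeneic means were 48.9, 28.8 and 77.1 CPM in WT and 5.91, 6.60 and 6.08 in KO. In the allogeneic setting KO and WT means lay between 4.45 and 4.97 CPM for all 3 genes. The smallest estimates of the list were those of Car1 (0.68 ± 1.22) and Mt2 (0.29 ± 0.84).

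**Figure D2:**
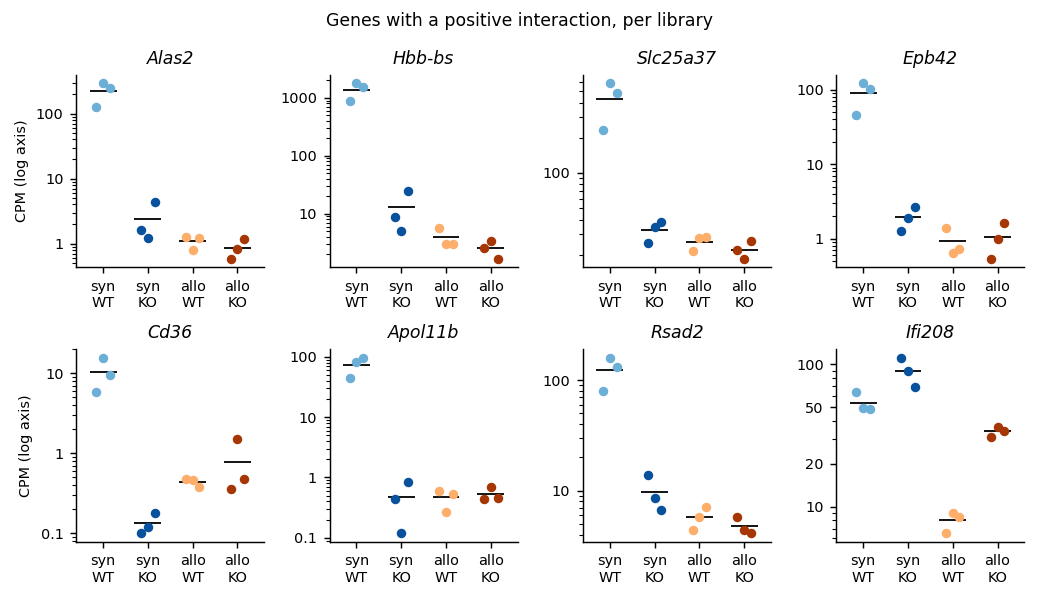
CPM (log axis, 1 point per library, bar at the group mean) of 8 genes with a called positive interaction in the 4 groups. In 7 of them the syngeneic WT libraries lie above the other 9, and Ifi208 instead is lowest in allogeneic WT.

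Sequence before the start site was compared because many red cell genes carry a binding motif of GATA factors there. The hexamers AGATAA and TGATAA were searched on both strands in the 300-base RefSeq windows (GRCm38.p6) that hold 250 bases before and 50 after a start. They occurred in 56.2% of 32 promoters of the red cell list (28 of 40 genes matched) and in 17 of 81 promoters of the called positive genes (59 of 79 matched). Outside the red cell, haem and platelet lists, the hexamers occurred in 15.1% of 73 promoters of called positive genes (51 of 64 matched). They occurred in 11.4% of 14668 promoters of all tested genes and in 0 of 9 promoters of the called negative genes (4 of 9 genes matched). For CACCC the shares were 78.1% in the red cell list, 71.6% in called positive, 77.8% in called negative and 63.5% in all promoters. For CAGGTG or CAGCTG they occurred in 8 of 32, 27 of 81, 2 of 9 and 31.5% in the same order. Matches of different motifs were counted separately and may overlap, and a match is a string of letters, not a measured binding site. The 250 bases before the start of 4 called genes that hold the first motif are shown with the motif in capitals, 5′ to 3′ on the gene's strand. They were chosen after values were seen, to cover a haem, a globin, a membrane and an apolipoprotein L gene:
Alas2 (chrX:150547167-150547416, plus strand): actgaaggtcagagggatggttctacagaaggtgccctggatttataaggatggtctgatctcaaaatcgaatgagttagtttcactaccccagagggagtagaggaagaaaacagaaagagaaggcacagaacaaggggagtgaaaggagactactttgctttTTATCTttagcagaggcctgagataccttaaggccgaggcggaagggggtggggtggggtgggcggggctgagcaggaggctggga
Hbb-bs (chr7:103827929-103828178, minus strand): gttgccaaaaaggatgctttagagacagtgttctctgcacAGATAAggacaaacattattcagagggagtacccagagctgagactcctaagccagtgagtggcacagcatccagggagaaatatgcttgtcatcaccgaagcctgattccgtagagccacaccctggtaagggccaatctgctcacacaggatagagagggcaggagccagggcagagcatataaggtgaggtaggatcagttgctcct
Epb42 (chr2:121036878-121037127, minus strand): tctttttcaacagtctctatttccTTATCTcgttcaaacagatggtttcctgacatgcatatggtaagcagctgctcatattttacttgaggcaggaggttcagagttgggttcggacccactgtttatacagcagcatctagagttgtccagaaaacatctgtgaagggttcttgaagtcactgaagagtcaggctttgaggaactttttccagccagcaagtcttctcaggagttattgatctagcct
Apol11b (chr15:77643287-77643536, minus strand): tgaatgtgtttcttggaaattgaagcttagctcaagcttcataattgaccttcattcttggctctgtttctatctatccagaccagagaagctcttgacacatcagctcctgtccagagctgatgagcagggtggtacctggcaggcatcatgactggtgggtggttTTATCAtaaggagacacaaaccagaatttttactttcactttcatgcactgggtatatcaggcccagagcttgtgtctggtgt
In Alas2 the motif, read on the opposite strand, begins 86 bases before the start, and in Apol11b 83 bases before it.

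Apolipoprotein L genes gave the 3 highest interactions among the called genes. These genes encode intracellular lipid-binding proteins of a family that has expanded in a cluster on mouse chromosome 15. Of 8 tested members 4 were called, all positive (against 0.428% of all tested genes), and the median over the 8 was 2.36. Apol11b was read at 44.0, 82.5 and 97.7 CPM in syngeneic WT and at 0.120 to 0.853 in the other 9 libraries, with an interaction of 7.56 ± 0.78 (edgeR adjusted p = 0.00291). Apol10a gave 8.77 ± 0.99, with syngeneic means of 9.36 CPM in WT and 0.0324 in KO and allogeneic means of 0.0766 and 0.113. Apol8 gave 3.20 ± 0.59. Apol10a and Apol11b were called without any 1 library, while Apol8 lost its call in 10 of 12 such fits, with both planned replicate blocks, with no filter on low counts and under limma voom.

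Members of the cluster were not alike. Apol7e, which lies between Apol11b and Apol8, had means of 15.3 CPM (WT) and 17.9 (KO) after syngeneic and 12.2 and 12.7 after allogeneic transplantation, and an interaction of −0.16 ± 0.32. Apol10b, between Apol11a and Apol11b, gave 1.52 ± 0.51 (edgeR adjusted p = 0.419), Apol7b −0.03 and Apol9b −0.73. Apol11a was called with 8.56 ± 1.58, but its libraries held 350 counts in syngeneic WT and 1, 3 and 4 counts in the other groups, so the fitted size is not a bound, and its call was lost in 10 of 12 fits without 1 library. The 250 bases before its start were identical to those of Apol11b in 250 of 250 positions. Copies this close can share reads, and the split between them is uncertain.

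Of the 79 positive genes, 21 stood in any of the lists and 15 in the red cell, haem or platelet lists, against 3.26% and 0.298% of all tested genes. Several outside the lists, named here after their values were seen, have known roles in red cells. Bpgm (1.96), which makes bisphosphoglycerate, Epb41 (1.11), Tmod1 (4.71) and Ackr1 (5.40), the Duffy antigen gene, are examples. So are Ube2o (1.86), a ubiquitin ligase of reticulocytes, and Slc6a9 (5.54), the glycine carrier that feeds haem synthesis. Cd36, a scavenger receptor for fatty acids, gave 7.12 ± 0.78 (edgeR adjusted p = 0.00291), with 5.85, 15.7 and 9.57 CPM in syngeneic WT and at most 1.52 in any other library. Ypel4 gave 6.66 ± 0.97 and Sowaha 6.76 ± 0.89, called in 6 and 11 of 12 fits without 1 library. In 33 of the 79 genes both allogeneic means were under 1 CPM, which leaves little room to see a lower value in KO.

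Pairs of neighbours were among the called genes. Hba-a1 with Hba-a2, Hbb-bt with Hbb-bs, Apol10a with Apol11a, Dmtn with Xpo7 and Ypel4 with Ube2l6 lay within 100 kb of each other. Slc6a9 with Ccdc24, St3gal5 with Gm29438 and Apex2 with Alas2 overlap. Whether counting used strand is not stated, so reads of overlapping genes cannot be told apart.

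The red cell list took 0.3921, 1.084 and 0.9246% of all counts in the 3 syngeneic WT libraries. In syngeneic KO it took 0.0351 to 0.0810%. In the allogeneic libraries it took 0.0464 to 0.0702% (WT) and 0.0490 to 0.0570% (KO). None of its 40 genes was at 0 in all libraries of any group. The syngeneic WT library with the lowest share, replicate 1, was also the lowest of the 3 in 78 of the 79 positive genes, against 35.5% of all tested genes. Its level was 0.467 times the mean of the other 2 libraries at the median positive gene, 0.378 times in the red cell list and 1.03 times over all genes. Among positive genes outside the red cell, haem and platelet lists the ratio was 0.474, and replicate 1 was lowest in 63 of 64. The part of red cell RNA in these interactions was not tested. In bulk libraries, fewer cells of a type and less RNA per cell cannot be told apart.

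**Figure D3:**
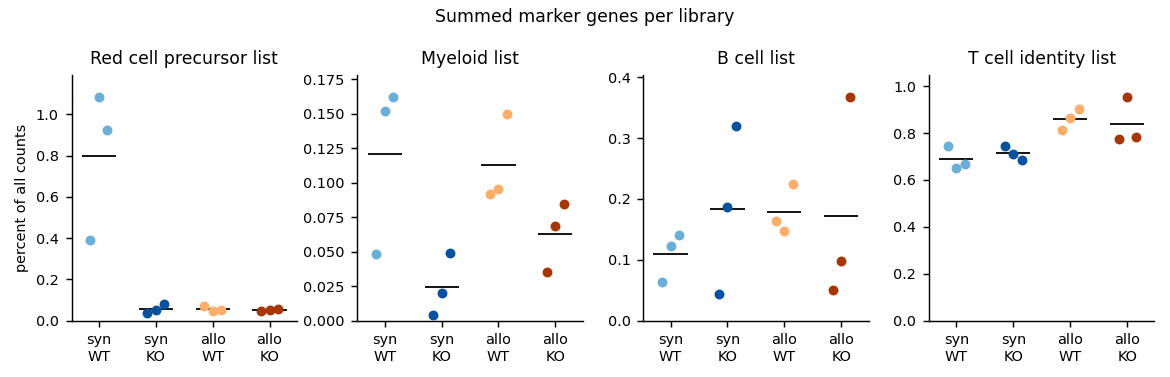
Summed counts of 4 marker lists as a percentage of all counts (1 point per library, bar at the group mean). The red cell list lies between 0.3921 and 1.084% in syngeneic WT and at most 0.0810% in the other 9 libraries, whereas the T cell list lies between 0.651 and 0.954% throughout.

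Markers of other cell types were read in the same way. Of 27 tested myeloid genes none was called and the median interaction was 2.56. An unadjusted p under 0.05 was found for 15 of them (against 6.2% of all tested genes). KO was called against WT after syngeneic transplantation in 11 of them (against 3.37% of all tested genes). The myeloid list took 0.0484 to 0.162% of counts in syngeneic WT and 0.00402 to 0.0487% in syngeneic KO libraries. Its allogeneic shares were 0.0921 to 0.150% for WT and 0.0352 to 0.0842% for KO. Of its 28 genes, Lyz1 was listed at 0 in both KO groups. C1qa, a complement gene of macrophages, had an interaction of 4.70 ± 1.16 (edgeR adjusted p = 0.149), and the class II gene H2-Aa gave 3.18 ± 0.82 (0.199). In the fit with syngeneic libraries paired by number, added after seeing the data, their edgeR adjusted p were 0.117 and 0.0218. With 1 library left out that of H2-Aa was 0.0673 to 0.486. Among 15 red pulp macrophage genes none was called and the median was 2.76. Of these, 12 had an unadjusted p under 0.05 (against 6.2% of all tested genes). After syngeneic transplantation 10 were called between KO and WT (against 3.37%). C1qa, C1qb, C1qc and Adgre1 stand in both this list and the myeloid list, so the 2 lists are not separate counts. Of 23 B cell genes none was called, with a median of 0.47 and estimates from −1.75 to 3.71. Among these genes 6 had an unadjusted p under 0.05 (against 6.2% of all tested genes). After syngeneic transplantation 3 were called between KO and WT (against 3.37%).

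2 interferon-induced genes were called among 31 (against 0.477% of all tested genes), and they differed in shape. Rsad2, which encodes the antiviral enzyme viperin, was read at 80.2, 160 and 132 CPM in syngeneic WT and at 13.8, 8.61 and 6.64 in syngeneic KO, with 4.14 to 7.10 across the 6 allogeneic libraries. Its interaction was 3.40 ± 0.43 (edgeR adjusted p = 0.00583), and its call held in all settings tried. Other interferon genes had estimates nearer 0: Isg15 gave 0.88 ± 0.59, Ifit1 −0.04 ± 0.57 and the list's median was 0.01. Within the Schlafen family, Slfn14, a ribosome-bound endonuclease of red cell precursors and platelets, was the 1 gene called of 9 (against 0.477%). It gave 6.65 ± 1.20, a call lost in 9 of 12 fits without 1 library, with no filter and with both planned replicate blocks, while Slfn2 gave −0.04 and Slfn5 −0.01.

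Ifi208, a gene of the Ifi200 family of DNA sensors and their relatives, was the 1 positive gene that rose with KO in both settings. It was read at 63.4, 49.2 and 48.8 CPM in syngeneic WT and 111, 89.6 and 69.3 in syngeneic KO. After allogeneic transplantation it was read at 6.54, 9.05 and 8.48 CPM in WT and 30.6, 36.4 and 34.1 in KO. KO lay above WT without overlap in both settings, and the syngeneic levels lay above the allogeneic ones. KO minus WT was 0.74 ± 0.18 after syngeneic and 2.07 ± 0.19 after allogeneic transplantation, and the interaction was 1.33 ± 0.25 (edgeR adjusted p = 0.0399). On an additive scale the order turned: the allogeneic minus the syngeneic difference of mean CPM was −10.57. Of the 12 tested family members no other was called, and Ifi207 gave 2.21 ± 0.56 (0.168) from means between 0.501 and 2.00 CPM. Reads of family members with similar sequence may be split between them.

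The 9 negative interactions were in genes with higher means in allogeneic than in syngeneic WT. The KO means of Egr2 and Egr3 were nearly equal in the settings. In 5 of the 9, Lag3, Zbtb32, St14, Car5b and Ajuba, KO was called higher than WT after syngeneic transplantation. The allogeneic difference of these 5 was between −0.15 and 0.42. In the other 4, Maf, Egr2, Egr3 and Podnl1, the KO difference was positive after syngeneic and negative after allogeneic transplantation, each with an unadjusted p under 0.05. Of these 4, only Podnl1 was also called after syngeneic transplantation (edgeR adjusted p = 0.0110). None of the 9 was called in the allogeneic setting alone.

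Lag3 encodes an inhibitory receptor of activated T cells that binds class II molecules. Its level was 8.25, 7.50 and 8.36 CPM in syngeneic WT and 26.2, 24.7 and 22.2 in syngeneic KO. After allogeneic transplantation it was read at 196, 186 and 198 CPM in WT and 238, 233 and 190 in KO. KO was clearly above WT in the syngeneic setting, while the allogeneic groups overlapped. KO minus WT was 1.60 ± 0.12 after syngeneic and 0.19 ± 0.11 after allogeneic transplantation, giving an interaction of −1.41 ± 0.16 (edgeR adjusted p = 0.00291). In CPM the allogeneic difference was the larger one, by 10.87, since the fold started from a level of 193 ± 6.33 rather than 8.04 ± 0.471 (SD, n = 3).

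Zbtb32 encodes a zinc finger repressor of activated lymphocytes. Its level was 6.64, 5.72 and 6.85 CPM in syngeneic WT and 20.5, 20.4 and 18.4 in syngeneic KO, and 51.6, 52.3 and 64.9 in allogeneic WT and 74.6, 77.2 and 73.7 in allogeneic KO. KO was above WT in both settings with no overlap, and the interaction was −1.21 ± 0.17 (edgeR adjusted p = 0.00691). Lag3 and Zbtb32 were the 2 negative genes called in every setting tried on the ratio scale. On the additive scale Zbtb32 and St14 turned as Lag3 did, with 5.53 and 5.02 CPM more in the allogeneic setting.

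St14, the gene of the membrane protease matriptase, gave −0.85 ± 0.16 with syngeneic means of 5.89 CPM in WT and 12.4 in KO and allogeneic means of 70.1 and 81.6. Car5b, a mitochondrial carbonic anhydrase gene, gave −1.23 ± 0.22 with 3.27 and 7.41 CPM in the syngeneic and 39.0 and 37.7 in the allogeneic setting. Ajuba, a LIM domain scaffold gene, gave −1.55 ± 0.30 with 0.760 and 2.02 CPM, then 27.0 and 24.4. For these 3 genes syngeneic KO thus lay between syngeneic WT and the allogeneic groups.

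Maf encodes the transcription factor c-Maf, which drives Il10 and type 2 cytokine genes in helper T cells. It was read at 17.9, 23.0 and 19.7 CPM in syngeneic WT and 32.4, 27.6 and 30.2 in syngeneic KO, but at 176, 158 and 135 in allogeneic WT and 112, 104 and 75.8 in allogeneic KO. The groups did not overlap in either setting and the order of KO and WT was opposite. KO minus WT was 0.57 ± 0.16 after syngeneic and −0.69 ± 0.16 after allogeneic transplantation, neither called alone (adjusted p = 0.0750 and 0.307). The interaction was −1.26 ± 0.22 (edgeR adjusted p = 0.0316). Of 8 tested CD4 lineage genes none was called and the median interaction was −0.54. An unadjusted p under 0.05 was found for 3 of them (against 6.2% of all tested genes). For 10 CD8 lineage genes, none of them called, the median was −0.09. The part of CD4 and CD8 cell shares in the Maf values was not tested.

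Egr2 and Egr3 are zinc finger factors induced by T cell receptor signals that restrain T cell activation. After syngeneic transplantation Egr2 was read at 11.6, 9.89 and 9.83 CPM in WT and 15.4, 15.7 and 15.9 in KO, and after allogeneic transplantation at 27.8, 19.9 and 24.4 in WT and 18.04, 16.1 and 12.98 in KO. Egr3 was read at 8.2, 7.17 and 6.70 CPM in WT and 12.2, 10.7 and 8.49 in KO in the syngeneic setting, and at 19.2, 14.5 and 17.7 in WT and 12.0, 9.93 and 9.61 in KO in the allogeneic one. In WT both genes were higher after allogeneic than after syngeneic transplantation, by 1.20 and 1.22 on the log2 scale. In KO that difference was 0.00 for both, with means of 15.7 CPM in either setting for Egr2, and 10.46 and 10.50 CPM for Egr3. The interactions were −1.20 ± 0.22 for Egr2 (edgeR adjusted p = 0.0347) and −1.21 ± 0.24 for Egr3 (0.0499).

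Egr1 gave −0.79 ± 0.39 (edgeR adjusted p = 0.889), and the median of the 20 immediate early genes was 0.06. Fos (0.24 ± 1.30), Jun (0.15 ± 0.80) and Nr4a1 (0.06 ± 0.36) were not called. Podnl1, a gene of a leucine-rich repeat protein, gave −0.91 ± 0.16, with 20.96 to 23.6 CPM (WT) and 32.0 to 35.0 (KO) in syngeneic libraries, and 114 to 125 (WT) and 86.5 to 111 (KO) in allogeneic ones. Leaving out single libraries ended the call of Maf in 6 of 12 cases, of Egr2 and Car5b in 9, of Podnl1 in 7 and of Egr3, St14, Ajuba and Ifi208 in 10, always with the same direction.

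**Figure D4:**
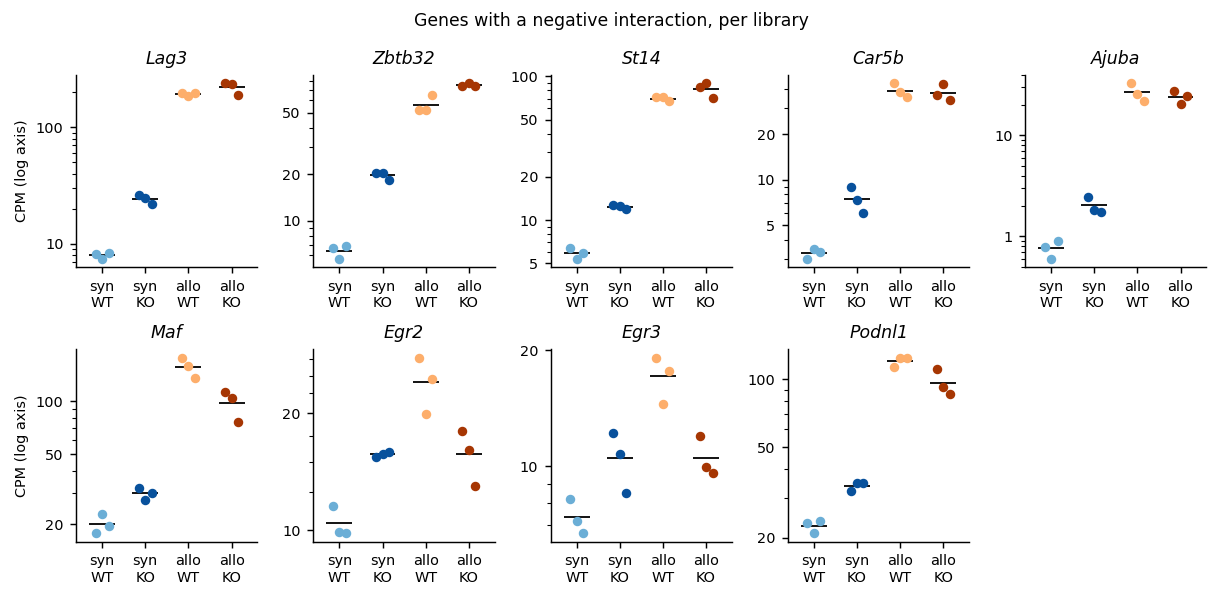
CPM (log axis, 1 point per library, bar at the group mean) of the 9 genes with a called negative interaction. Syngeneic WT is lowest in each, and in Maf, Egr2, Egr3 and Podnl1 KO lies above WT after syngeneic and below it after allogeneic transplantation.

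Genes related to these were read from lists. Of 14 inhibitory receptor genes 1 was called (Lag3, against 0.0488% of all tested genes called negative), and the median interaction was −0.20. Tigit gave −1.05 ± 0.21 (edgeR adjusted p = 0.0541), Havcr2, which encodes TIM-3, −1.40 ± 0.34 (0.145) and Pdcd1, which encodes PD-1, −0.97 ± 0.31 (0.347). For Pdcd1, syngeneic libraries held 13.6 to 14.8 CPM in WT and 30.5 to 47.4 in KO, and allogeneic ones 287 to 328 in WT and 296 to 592 in KO. Ctla4 gave 0.00 ± 0.39, with 13.2 and 13.5 CPM in syngeneic WT and KO and 66.7 and 67.8 in allogeneic WT and KO.

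Helper cytokine genes had low counts. Il10 gave −2.95 ± 0.67 (edgeR adjusted p = 0.0998). Its syngeneic libraries held 0.341 to 0.496 CPM in WT and 0.654 to 2.57 in KO, and its allogeneic ones 3.92 to 6.54 in WT and 1.56 to 4.06 in KO. With 1 library left out its edgeR adjusted p was 0.0125 to 0.313. In the fit with syngeneic libraries paired by number, added after seeing the data, it was 0.0494. That fit left Havcr2 (0.163), Gzmk (0.239) and Pdcd1 (0.333) uncalled. Without pairing, Il13 gave −2.16 ± 0.60 (edgeR adjusted p = 0.230) and Il21 −1.68 ± 0.52 (0.334). Of 11 type 2 helper genes 1 was called (Maf, against 0.0488% of all tested genes), with a median of −0.52. Of 16 regulatory T cell genes and 27 effector genes none was called, with medians of −0.33 and −0.37. Irf4, a factor induced in proportion to T cell receptor signal, gave −0.77 ± 0.17 (edgeR adjusted p = 0.0738), and Prdm1, the gene of the effector regulator Blimp-1, gave −0.95 ± 0.24 (0.168).

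**Figure D5:**
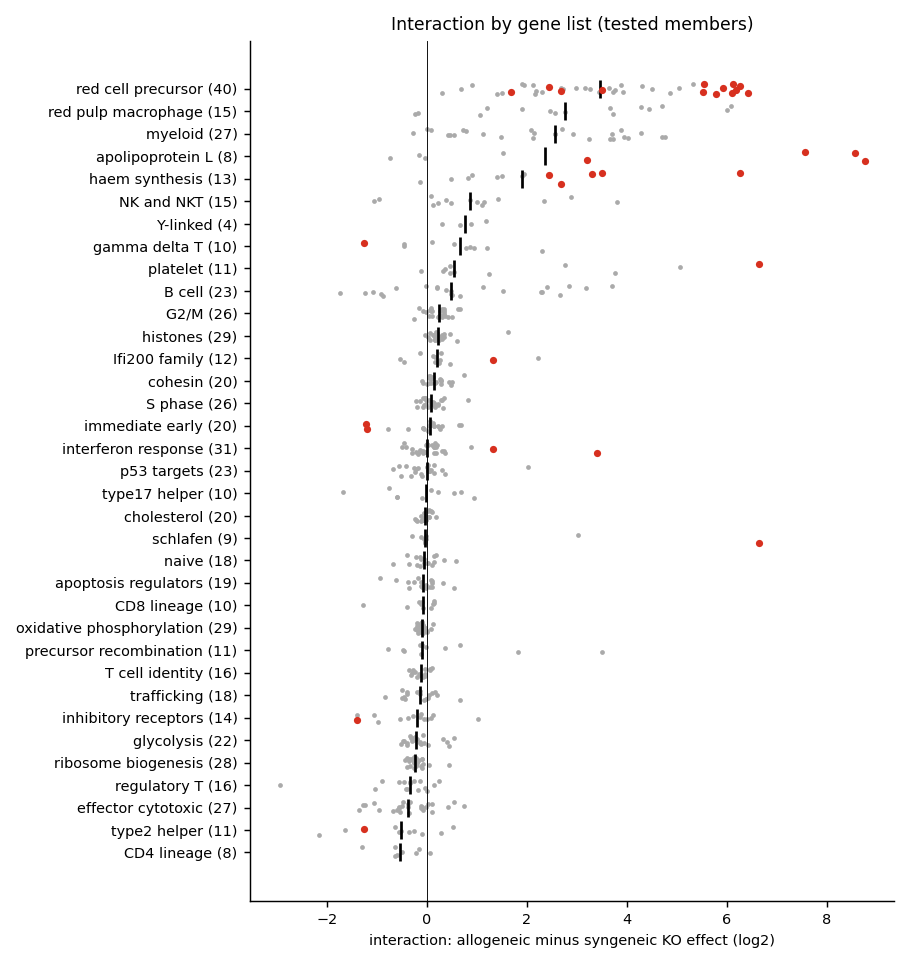
Interaction (log2) of each tested member of 35 gene lists, ordered by the list median (black bar), with the number tested in parentheses and called genes in red. The red cell precursor list has the highest median (3.47) and the CD4 lineage list the lowest (−0.54). Medians of the type 2 helper, effector and regulatory T cell lists are −0.52, −0.37 and −0.33. Those of T cell identity and oxidative phosphorylation are −0.12 and −0.11.

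No gene was called in the lists for naive T cells (18 tested), G2/M (26), S phase (26), replication-dependent histones (29), cohesin and its regulators (20), oxidative phosphorylation (29), cholesterol synthesis (20) or ribosome biogenesis (28). Mki67, a proliferation marker, gave 0.66 ± 0.36, Tcf7 −0.22 ± 0.30, Cd4 −0.63 ± 0.33 and Cd8a 0.14 ± 0.26. The interferon gamma gene Ifng gave −0.37 ± 0.56 and Gzmb, which encodes granzyme B, −0.56 ± 0.43. None of these was called, and their SE sets how large a difference could have been seen.

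Some genes differed strongly between KO and WT in both settings without a called interaction. Hist1h4m, a replication-dependent histone H4 gene, was read at 0.187 to 0.324 CPM in syngeneic WT and 29.9 to 58.3 in syngeneic KO. In the allogeneic setting it was read at 0.0611 to 0.226 CPM in WT and 33.7 to 84.2 in KO. Its interaction was 1.63 ± 0.78 (edgeR adjusted p = 0.847). All 4 tested Y-linked genes were called in both settings, against 3.37% of all tested genes after syngeneic and 0.0542% after allogeneic transplantation. Ddx3y was read at 0 to 0.103 CPM in the 6 WT and 9.41 to 38.0 in the 6 KO libraries, with an interaction of 1.18 ± 1.66. KO and WT libraries thus differed in Y-linked RNA in both settings, and the part of donor sex in the KO minus WT differences was not tested.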

How the data were processed

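The members, gene lists and tests were chosen with earlier results of these data known. The authors deposited expected counts per gene. Per the submitters' processing notes, the tools were Bowtie2 2.2.1, TopHat2 2.0.13, Cuffdiff 2.2.1 and Cufflinks on GRCm38; the step that made the counts, its annotation and its strand setting are not given in the sources used here. The counts were rounded. Of 46073 genes, 45139 matched GENCODE M21 by identifier, which gave current symbols (Wapl is Wapal in the table) and positions. A further 6 columns, with a prefix that matches no sample by name, were not used, and the naive samples were not analysed here.

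edgeR 4.0.16 (R 4.3.3, limma 3.58.1) fitted 1 mean per group to 12 libraries with TMM scaling, filterByExpr (count minimum 10) and robust quasi-likelihood moderation. The interaction contrast was (allogeneic KO − WT) − (syngeneic KO − WT), two-sided, adjusted by Benjamini-Hochberg over 18447 genes. Unless stated otherwise, adjusted p-values come from this fit. SE is the size of the log2 value divided by the square root of F. Replicates are pools of mice described as independent. The script was tested on simulated data.

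Named genes were Wapl, the 10 highest and 10 lowest called interactions with a mean of at least 1 CPM in a group and no overlap of KO and WT in a setting (unnamed symbols, receptor segments and small RNAs left out), up to 5 called members of each list by p, up to 8 called crossing genes and a set of landmark genes. A few genes that the rule names are not reported here. Other genes were named as list members after their values were seen. Same-numbered syngeneic WT and KO libraries had residual correlations of 0.545, 0.17 and 0.335, and allogeneic ones 0.00979, −0.137 and 0.184. With differently numbered KO libraries, syngeneic WT replicates 1, 2 and 3 reached at most −0.206, 0.363 and 0.114. Replicate 2 was thus not closest to its own number. The syngeneic pairing was taken from the data, since the labels do not give it. Alternatives were other scaling, filters, DESeq2 1.42.0, limma voom with quality weights, replicate blocks, no robust step, no ribosomal RNA genes, single libraries left out, and, added after seeing the data, the syngeneic block and an additive CPM scale.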

Additional observations from a re-analysis of the deposited data

Results flagged for a closer look

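For each gene here, KO minus WT differed between the 2 transplant settings by the test of the interaction in edgeR. The parts of red cell RNA and of donor sex in these differences were not tested. The values are interactions on the log2 scale. Among red cell and haem genes they were Hbb-bt 6.43, Alas2 6.26, Hbb-bs 6.13, Epb42 5.78, Slc25a37 3.50, Abcb10 3.30, Fech 2.68 and Xpo7 1.68. Among apolipoprotein L genes they were Apol10a 8.77, Apol11a 8.56, Apol11b 7.56 and Apol8 3.20. Other positive ones were Cd36 7.12, Sowaha 6.76, Ypel4 6.66, Slfn14 6.65, Rsad2 3.40 and Ifi208 1.33. The negative ones were Ajuba −1.55, Lag3 −1.41, Maf −1.26, Car5b −1.23, Zbtb32 −1.21, Egr3 −1.21, Egr2 −1.20, Podnl1 −0.91 and St14 −0.85.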

How the results depend on the processing

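All 88 called genes kept their direction in every other fit on the log2 scale that tested them, and 21 (19 positive, 2 negative) were called in all 24 other settings. DESeq2 called 296 genes (246 positive, 50 negative), limma voom with quality weights 366 (305 and 61), and the replicate block within syngeneic libraries 173 (160 positive). Library sizes alone gave 51 positive calls. A replicate block shared by all groups called 64 genes and one within each setting 127. Leaving out 1 library gave 28 to 242 calls, 25 to 232 positive and 2 to 11 negative. The cause was not tested. On the additive CPM scale Lag3 (10.87), Zbtb32 (5.53), St14 (5.02) and Ifi208 (−10.57) changed sign. Among genes not called in the reported fit, Cd8a was −0.029 under limma voom and ranged from −0.016 to 0.35 with 1 library left out, and Ifng from −0.75 to 0.17. Counting depth limits genes under 1 CPM in both allogeneic groups, 33 of the 79 positive ones.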

Other observations

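A few genes with little shown so far had sizeable estimates that were not called. Gzmk, the granzyme K gene, was read at 4.43 to 6.43 CPM (WT) and 13.8 to 27.8 (KO) in the syngeneic setting and at 60.2 to 95.5 and 92.7 to 170 in the allogeneic one, with an interaction of −1.27 ± 0.40. Gadd45a, a stress-response gene, had syngeneic means of 9.73 CPM in WT and 1.82 in KO, allogeneic means of 1.91 and 1.44, and an interaction of 2.02 ± 0.48 (edgeR adjusted p = 0.125). Cdkn1a, the p21 gene, gave −0.68 ± 0.33, and the median of the 23 p53 target genes was 0.00. Tnfrsf4, which encodes the costimulatory receptor OX40, gave −1.30 ± 0.41 (edgeR adjusted p = 0.351) from means of 14.9, 26.5, 65.7 and 47.5 CPM in the order of syngeneic WT and KO, then allogeneic WT and KO. Ighm, the IgM heavy chain gene of B cells, gave −0.87 ± 0.92.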
